A study of Mus musculus with 11 samples.

Results

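The choroid plexus (CP) of mice in remission from experimental autoimmune encephalomyelitis (EAE) was compared with that of control mice, in 3 remission pools and 3 control pools of the 11 pools of the series. EAE is the mouse model of multiple sclerosis, and in the SJL strain it runs as an attack, a remission and, in some mice, a relapse. The comparison took in every probe of an Illumina MouseRef-8 array, 23978 in all, of which 20917 were paired with 1 gene each and stood for 15946 genes. Remission mice were female SJL mice of 6 to 8 weeks of age injected with a peptide of proteolipid protein (PLP) in complete Freund's adjuvant, with pertussis toxin, and their CP was collected on day 21. Control mice, of the same strain, sex and age, received phosphate buffer saline (PBS) in the same adjuvant with the same toxin, so that adjuvant and toxin were common to both groups. Their CP was collected on day 14, and a difference of phase and a difference of 7 days therefore cannot be told apart. Each pool held the CP of 3 mice. The 3 onset pools, of day 14, and the 2 relapse pools, of day 29, entered the normalization and the fit. They add to its shared estimate of the spread, on which the p-values rest, and otherwise serve to place the remission values.

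The CP is a fold of tissue in each brain ventricle that secretes cerebrospinal fluid. A single layer of epithelial cells, joined by tight junctions, covers a stroma of fibroblasts, macrophages and dendritic cells and a bed of fenestrated capillaries. Leukocytes can leave these capillaries for the stroma, where cells that carry MHC class II molecules present antigen to T lymphocytes. In tissue measured as a whole, more cells of a type and more RNA per cell cannot be told apart, and this holds for every marker gene below.

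Remission pool 3 and onset pool 3 were very close to each other. Over the 10012 probes detected in both, 0 had a difference above 1 in log2 signal, and the SD of their difference was 0.0939, against 0.178 or more for every other pair of pools. The labels give them as separate pools of different phases, and whether they share material or one carries the wrong label was not tested, so every value over 3 remission pools may hold a pool that is not of remission. The main counts, most lists and the leading genes are therefore also given without remission pool 3, that is, for remission pools 1 and 2. The median signal of a pool lay between 257 and 378, and with a detection p under 0.01 as the mark of a signal above background, 8687 to 10221 probes passed in a pool. The label of the tissue held, in that the summed level of the 6 epithelial markers measured lay between 18.5 and 18.6 on the log2 scale in remission and in control. Markers of B lymphocytes were above background in no pool, while in remission 2 of 4 neuronal, 2 of 3 oligodendrocyte and 2 of 3 astrocyte markers were above background. Snap25, Nefl, Mog and Gfap were above background in no pool. Oligodendrocyte markers summed to 12.60, 12.21 and 13.19 in remission, against 11.54, 11.29 and 12.87 in control, and their part in the results was not tested. Neutrophil markers summed to 12.50, 12.62 and 13.77 in remission pools 1 to 3, against 12.14, 11.18 and 12.46 in the control pools, so that pool 3 stood highest. Control pool 1 had the highest level of the 2 erythroid markers, 13.89, against 11.36 and 11.64 in the other control pools and 11.49 to 12.88 in remission.

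In remission, 49 probes were higher than in control and 0 were lower at a false discovery rate of 5% (0.204% and 0% of all probes tested), by limma's moderated test. The 49 probes comprised 44 named genes (0.276% of the 15946 genes) and 5 probes without a gene name. At an unadjusted p under 0.05, 948 probes were higher (3.95%) and 748 lower (3.12%). The named genes were mostly genes of blood vessels (14) and of leukocytes (7 grouped with T lymphocytes and 10 of other leukocytes). Smaller groups were genes of the stroma (5), of antigen presentation and complement (4) and others (4). For the 32 genes above background in control, log2 fold changes lay between 0.45 (Axl) and 1.33 (Cd74). The other 12 were above background in no control pool. The 3 remission pools lay above the 3 control pools for all 49 probes, which was so for 5.67% of all probes.

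Without remission pool 3, 18 probes were higher (0.0751% of all probes) and 0 were lower. Of these, 8 were among the 49, namely Flt1, Alpl, Robo4, Parvg, Ptprb, Cd74, H2-Ab1 and 1 probe without a gene name, and 4 further named genes, Cd3g, Itgae, Mgl2 and Alox12, were called. All 49 probes kept a higher level and an unadjusted p under 0.05 without that pool. The number of calls depended on single pools: 0 probes were called without remission pool 2 or without control pool 2, 4 without control pool 1 and 85 without control pool 3. Control pool 2 was the lowest of the 3 control pools for 33 of the 44 named genes, a share that was not computed over all genes. Of all pools it had the fewest probes above background (8687), the highest median signal (377.5) and the lowest array weight (0.427).

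**Figure D1:**
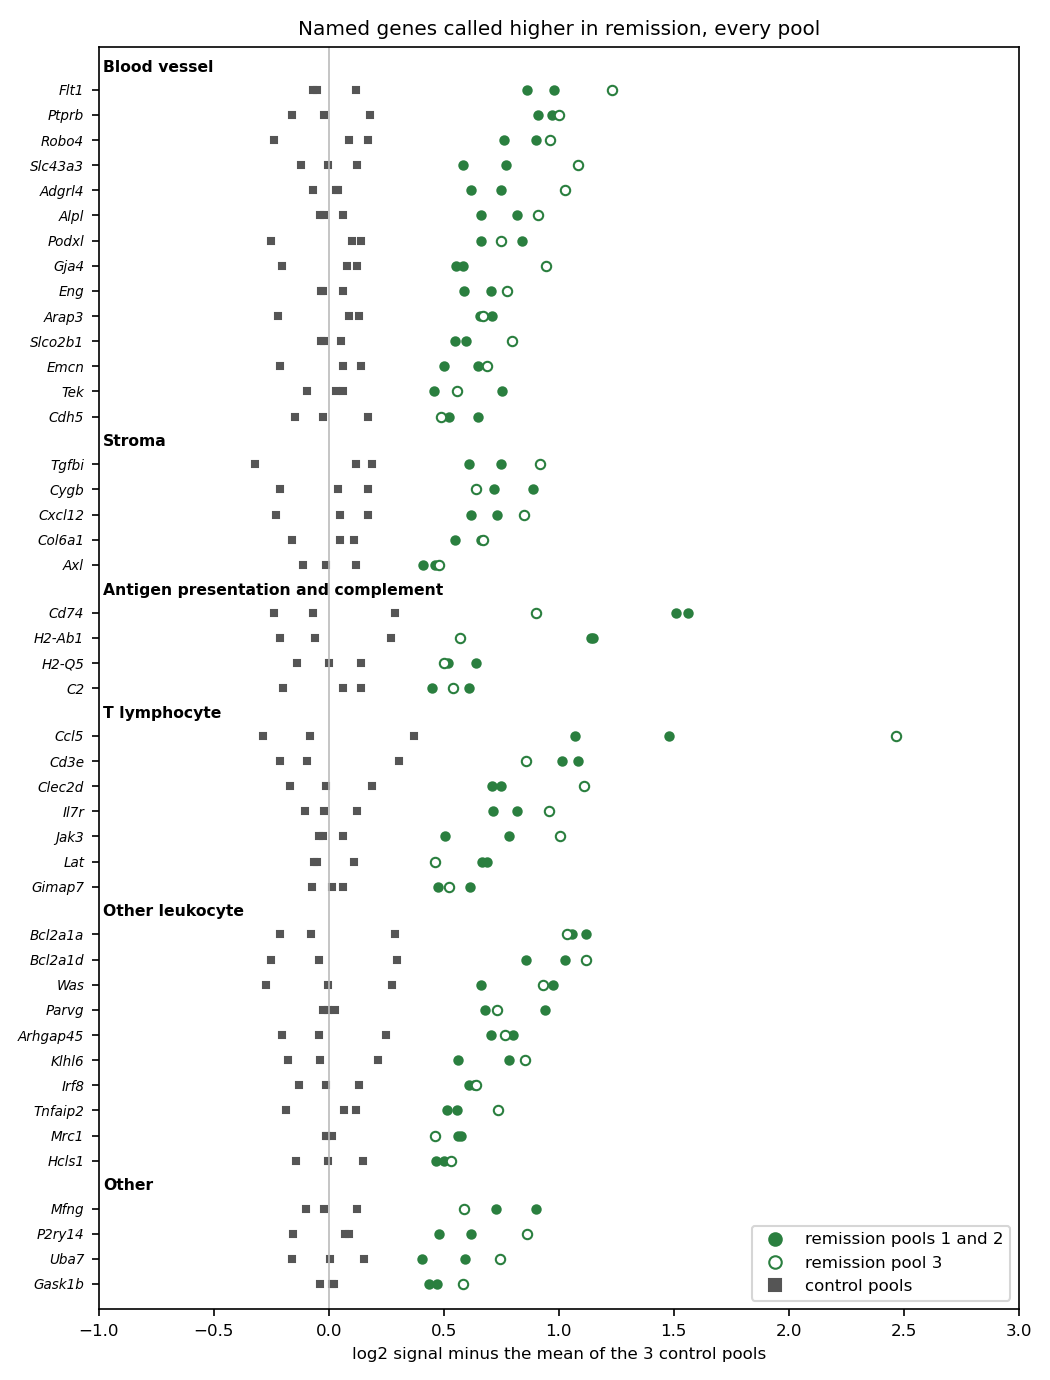
Log2 signal of the 44 named genes called higher in remission, as the difference from the mean of the 3 control pools. Green points are remission pools 1 and 2, open points remission pool 3 and grey squares the control pools. Genes are grouped by role, with Clec2d placed among those of T lymphocytes. The remission pools lie above all control pools in each row, and remission pool 3 is the highest remission pool in 26 rows and the lowest in 10, Cd74 and H2-Ab1 among these.

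Genes of blood vessels made up 14 of the 44 named genes, and genes of leukocytes 17, of which 7 were grouped with T lymphocytes. Flt1, the VEGF receptor 1 of endothelial cells, had log2 signals of 12.54, 12.66 and 12.91 in the remission pools, against 11.80, 11.61 and 11.63 in the control pools. It was about 2-fold higher, with a log2 fold change of 1.02 ± 0.11 (SE, n = 3 pools each, adjusted p = 0.0147) and of 0.92 without remission pool 3 (adjusted p = 0.0113). Robo4, a receptor that steadies the endothelial barrier, was at 11.04, 11.18 and 11.24 in remission and at 10.45, 10.04 and 10.37 in control (log2 fold change 0.87 ± 0.11, adjusted p = 0.0161). Ptprb, the endothelial phosphatase VE-PTP, was at 12.19, 12.25 and 12.28 in remission and at 11.46, 11.26 and 11.12 in control (0.96 ± 0.12, adjusted p = 0.0164). In these 3 genes the groups were far apart relative to the spread within either group, which a choice by the test favours. Each was also called without remission pool 3 and in 4 of the 6 fits that left out 1 remission or control pool.

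Promoters of Flt1, Robo4 and Emcn, an endothelial sialomucin, are shown because these genes rose together. The sequences are the 250 bases before the RefSeq start of the gene, 5′ to 3′ on its own strand, in build GRCm38.p6, and capitals mark the core AGGAAG, bound by ETS factors, of which endothelial cells use several, or its complement CTTCCT.
Flt1 (chr5:147726012-147726261, minus strand): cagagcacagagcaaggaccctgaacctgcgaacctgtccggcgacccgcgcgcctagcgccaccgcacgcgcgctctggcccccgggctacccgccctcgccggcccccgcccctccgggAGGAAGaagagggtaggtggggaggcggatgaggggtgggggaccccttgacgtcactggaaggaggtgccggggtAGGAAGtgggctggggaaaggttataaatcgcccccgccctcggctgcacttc
Robo4 (chr9:37401722-37401971, plus strand): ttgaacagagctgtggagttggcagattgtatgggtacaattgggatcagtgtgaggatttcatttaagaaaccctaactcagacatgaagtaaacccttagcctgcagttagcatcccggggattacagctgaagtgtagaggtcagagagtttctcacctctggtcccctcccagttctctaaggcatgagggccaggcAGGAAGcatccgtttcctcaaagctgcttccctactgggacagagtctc
Emcn (chr3:137340828-137341077, plus strand): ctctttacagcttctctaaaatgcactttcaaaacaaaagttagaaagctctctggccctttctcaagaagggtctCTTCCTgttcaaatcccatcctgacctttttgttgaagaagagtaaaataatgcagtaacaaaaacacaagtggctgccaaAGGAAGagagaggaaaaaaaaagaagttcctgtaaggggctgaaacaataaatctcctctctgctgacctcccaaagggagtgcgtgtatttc
The motif was searched on both strands. It lay in 29.5% of the 32851 windows of 250 bases of the promoter table, in 8 of the 12 windows of the 9 vessel genes matched there, and in 24 of the 42 windows of the 32 called genes matched. These are matches of letters only, and many genes share them.

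The other vessel genes had smaller increases. The angiopoietin receptor Tek (log2 fold change 0.59), the TGF-beta co-receptor Eng (0.69), the junction cadherin Cdh5 (0.55), Emcn (0.62), Podxl (0.76), Arap3 (0.68), the adhesion receptor Adgrl4 (0.80) and the gap junction protein Gja4 (0.69) all passed the test. So did Alpl, a phosphatase of brain microvessels among other sites (0.80), the organic anion carrier Slco2b1 (0.65) and Slc43a3, a nucleobase carrier (0.81). Leaving out remission pool 3 kept all 14 between 0.57 and 0.945, and 4 of them stayed called. Podxl, a sialomucin of the luminal face of vessels, was at 11.63, 11.81 and 11.72 in remission, against 11.07, 10.72 and 11.11 in control, without overlap.

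Across a list of 42 endothelial identity genes, 39 were measured, 10 were called and 27 had an unadjusted p under 0.05 with a higher level (69.2%, against 4.48% of all genes). Their median log2 fold change was 0.41, against -0.01 over all genes, and without remission pool 3 it stayed at 0.41 with 3 genes called. The median stood at 0.32, 0.43 and 0.46 in remission pools 1, 2 and 3. Members that missed the threshold included Sox17, an arterial transcription factor (adjusted p = 0.0643, above background in 0 control pools and 3 remission pools), Cd93 (log2 fold change 0.55, adjusted p = 0.105) and Mmrn2 (0.52, adjusted p = 0.109). Pecam1, a junction protein common to all endothelium, had a log2 fold change of 0.27 with a 95% confidence interval of -0.10 to 0.65. Kdr, the VEGF receptor 2, was above background in no pool. The 8 endothelial markers summed to between 14.37 and 14.57 on the log2 scale in remission and between 13.59 and 13.84 in control.

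Mural cells and fibroblasts lie around the vessels. Of 15 mural cell genes measured, 0 were called and 7 had an unadjusted p under 0.05 with a higher level (46.7%, against 4.48% of all genes). Their median was 0.21 on the log2 scale, and 0.19 without remission pool 3. Mylk, the myosin light chain kinase of smooth muscle, was at 0.40 (adjusted p = 0.149). Among 28 fibroblast and stromal genes, Cxcl12, the chemokine that keeps CXCR4-bearing leukocytes at vessels and stroma, and Col6a1, a chain of collagen VI, were called, and 7 genes had an unadjusted p under 0.05 with a higher level (25%). Cxcl12 had log2 signals of 11.81, 11.92 and 12.04 in remission, against 11.36, 10.96 and 11.24 in control (log2 fold change 0.73 ± 0.10, adjusted p = 0.0247). Its second probe above background gave 0.24 (adjusted p = 0.848), so the 2 probes disagreed in size. Called genes of stromal cells and their matrix outside the list were Tgfbi (0.76), with a second probe at 0.78, Cygb (0.75) and the receptor tyrosine kinase Axl (0.45). The 5 stromal genes lay between 0.435 and 0.81 without remission pool 3, and 0 of them were then called.

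Of the 14 vessel genes, 6 also stood higher in remission than in relapse. In the direct comparison, 7 probes were higher in remission (0.0292% of all probes) and 0 were lower, each of another gene, and all 7 genes were among the 44: Flt1, Alpl, Robo4, Arap3, Cxcl12, Eng and Emcn. Flt1 differed by 1.04 (adjusted p = 0.0143), with relapse pools at 11.55 and 11.78, the second of them inside the range of the control pools. Robo4 differed by 1.03 (adjusted p = 0.0143), with relapse pools at 10.08 and 10.17. Relapse was a median of 0.02 from control over the 14 vessel genes, between -0.26 and 0.29, while onset was a median of 0.74 above control, close to the 0.73 of remission. Flt1 in onset was 1.02 above control (adjusted p = 0.00351). The 44 genes were picked for high remission and low control values, and the same remission pools enter the comparison with relapse. That choice favours genes of the 44 among the 7, so their overlap is a description. The onset and relapse values over control share the control pools, whose low values in these genes were part of the choice. With 2 relapse pools the comparison was easily lost: without remission pool 2 or 3 it called 0 probes.

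Antigen presentation was led by the MHC class II pathway. Cd74, the invariant chain that guides class II molecules to the compartment where peptide is loaded, had log2 signals of 14.31, 14.26 and 13.65 in remission, against 12.68, 12.51 and 13.04 in control. Its log2 fold change was 1.33 ± 0.20 (2.52-fold, adjusted p = 0.0287) and 1.55 without remission pool 3 (adjusted p = 0.0118). H2-Ab1, a beta chain of class II, was at 13.21, 13.22 and 12.64 in remission and at 12.01, 11.86 and 12.34 in control (0.95 ± 0.17, adjusted p = 0.0465, and 1.15 without remission pool 3, adjusted p = 0.0204). In both genes remission pools 1 and 2 were nearly equal and pool 3 stood nearer to control. A second probe of H2-Ab1 was at 1.06 (adjusted p = 0.307), and a further one was above background in 3 remission and 0 control pools (adjusted p = 0.374).

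Other class II genes did not pass the test. H2-Eb1, another beta chain, was at 12.88, 12.96 and 12.21 in remission and at 11.51, 11.04 and 12.06 in control (log2 fold change 1.15, adjusted p = 0.0843). H2-Aa, the alpha chain that pairs with H2-Ab1, was above background in 2 remission pools and 0 control pools, as was Ciita, the activator of class II transcription. Ctss, the protease that trims the invariant chain, had 0.98 (adjusted p = 0.317). Of 17 genes of class II and its loading, 8 had an unadjusted p under 0.05 with a higher level (47.1%, against 4.48% of all genes) and 1, Rfxap of the RFX factor, had a lower one. The median was 0.14, and 0.31 without remission pool 3, with pools 1 to 3 at 0.23, 0.36 and 0.08. Of the 17 genes, 11 were above background in a remission or control pool.

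The second set of promoters belongs to the alpha and beta chain genes H2-Aa and H2-Eb1, in which class II genes carry a conserved Y box. Capitals mark the motif CTGATTGG or its complement, searched on both strands.
H2-Eb1 (chr17:34305617-34305866, plus strand): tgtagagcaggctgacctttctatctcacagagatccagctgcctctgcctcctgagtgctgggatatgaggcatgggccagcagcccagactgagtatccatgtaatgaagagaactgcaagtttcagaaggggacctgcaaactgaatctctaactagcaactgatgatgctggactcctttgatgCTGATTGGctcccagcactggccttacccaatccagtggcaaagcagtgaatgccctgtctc
H2-Aa (chr17:34287824-34288073, minus strand): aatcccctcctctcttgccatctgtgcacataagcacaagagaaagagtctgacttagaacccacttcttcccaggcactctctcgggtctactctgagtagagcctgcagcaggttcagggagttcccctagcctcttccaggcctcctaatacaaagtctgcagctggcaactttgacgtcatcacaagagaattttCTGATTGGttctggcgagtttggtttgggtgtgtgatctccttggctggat
The motif lay in 3.83% of all windows of 250 bases and in 1 of the 42 windows of the called genes matched. The called class II genes Cd74 and H2-Ab1 were not matched and are not among these windows, and H2-Aa and H2-Eb1 were not called.

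Outside the class II pathway, 1 class I gene and 1 complement gene were called. H2-Q5, a class I gene of the Q region, was called (log2 fold change 0.55, adjusted p = 0.0409), as was C2, the complement component that with C4 forms the C3 convertase (0.54, adjusted p = 0.0409). Near-identical class I genes can share probes, so H2-Q5 may include its neighbours. In the class I list 0 of 22 genes were called, with a median of 0.13 and of 0.11 without remission pool 3, and 9 had an unadjusted p under 0.05 with a higher level (40.9%, against 4.48% of all genes), among them H2-T23 (0.76, adjusted p = 0.0567), Psmb9 of the immunoproteasome (0.65, adjusted p = 0.12) and B2m (0.37, adjusted p = 0.341).

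Of the 7 called genes grouped with T lymphocytes, 6 were above background in no control pool. The other, Clec2d, is known as a ligand of an NK cell receptor and was above background in all 3 control pools. Cd3e, a chain of the CD3 complex, was at 9.29, 9.35 and 9.13 on the log2 scale in remission, above background in 3 pools, and at 8.18, 8.06 and 8.57 in control, above background in 0. Against the lowest signal an array could detect, it was higher by at least 1.16-fold (adjusted p = 0.0308). Cd3d and Cd3g were above background in the same 3 and 0 pools (adjusted p = 0.056 and 0.0577), and Cd3g was called without remission pool 3 (adjusted p = 0.0468). Lat, the adaptor of the T cell receptor, and Il7r, the IL-7 receptor of resting and memory T cells, were called (adjusted p = 0.0445 and 0.0382) and were above background in 2 and 1 remission pools and in 0 control pools. Jak3, the kinase of the common gamma chain, was above background in 2 remission and 0 control pools, at least 1.15-fold higher (adjusted p = 0.0382).

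Ccl5, a chemokine of activated T cells and other leukocytes, was the most uneven of them in remission. Its log2 signals were 9.30, 9.70 and 10.69 in remission, against 8.14, 7.94 and 8.59 in control, where it was above background in 0 pools, so that it was at least 1.80-fold higher (adjusted p = 0.0483). Remission pool 3 stood well above the other two, at the level of onset pool 3 (10.77), and without it the adjusted p was 0.0906. Clec2d, a ligand of an NK cell receptor, was called as well (log2 fold change 0.85, adjusted p = 0.0399). Gimap7, a GTPase of lymphocytes, was called although it was above background in no pool of either group, and no fold is given for it. Without remission pool 3, 0 of these 7 genes were called.

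In the T cell list, 3 of 28 genes measured were called, against 0.276% of all genes. A further count, 11, had an unadjusted p under 0.05 with a higher level (39.3%, against 4.48% of all genes). The median log2 fold change was 0.09 over the list, and 0.11 without remission pool 3, when 1 gene was called. Only 10 of the 28 were above background in any remission or control pool, so this median rests mostly on genes near background. Thy1 (0.81, adjusted p = 0.0855) and Coro1a (0.92, adjusted p = 0.193) were above background in all 6 pools. The integrin chains Itgae, which holds lymphocytes at epithelium by binding E-cadherin, and Itgb7, its partner, were above background in 3 remission and 0 control pools. Itgae was at 9.69, 9.56 and 9.11 in remission, against 8.79, 8.83 and 8.66 in control, and was called without remission pool 3 (adjusted p = 0.0108, against 0.06 with it). Itgb7 missed the threshold in both (adjusted p = 0.117 and 0.204).

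**Figure D2:**
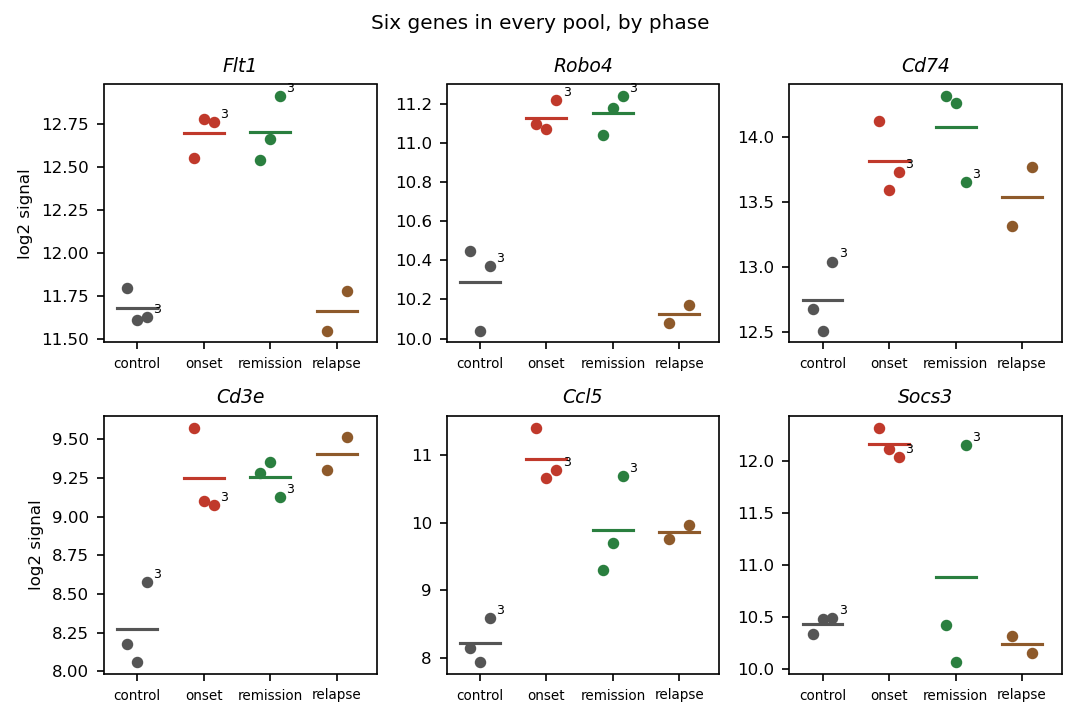
Log2 signal of 6 genes in every pool by phase, from control through onset and remission to relapse, with the group mean as a line and pool 3 of each group marked. Flt1 and Robo4 in relapse lie near control, Cd3e in relapse lies at 9.30 and 9.52, and Socs3 in remission is at the onset level in pool 3 alone.

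Genes of other leukocytes came next, 10 in number. Parvg, a parvin of blood cells that links integrins to actin, was at 8.93, 9.19 and 8.98 on the log2 scale in remission, against 8.22, 8.28 and 8.25 in control (adjusted p = 0.0164, and 0.0346 without remission pool 3), and was above background in no control pool. Was, the Wiskott-Aldrich actin regulator, was at least 1.26-fold higher (adjusted p = 0.0483) and Arhgap45 at least 1.28-fold (adjusted p = 0.0248), also against no control pool above background. Irf8, the transcription factor of macrophages and dendritic cells, was at 10.82, 10.80 and 10.83 in remission, against 10.18, 10.06 and 10.32 in control, and had a log2 fold change of 0.63 (adjusted p = 0.0353). Mrc1, the mannose receptor of resident macrophages, was at 10.12, 10.11 and 10.01 in remission, against 9.56, 9.54 and 9.54 in control (0.54, adjusted p = 0.0376). The spread of both within either group was small beside the difference, which their choice by the test favours.

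Bcl2a1a and Bcl2a1d, survival genes of the BCL2 family in leukocytes, had log2 fold changes of 1.07 and 1.00 (adjusted p = 0.0382 and 0.0399). Bcl2a1b had 1.13 and missed the threshold (adjusted p = 0.0602). These copies are nearly identical, so their probes may not tell them apart. Klhl6, a gene of B lymphocytes and of some endothelium (0.73), Hcls1, an actin adaptor, and Tnfaip2 were called too, the last 2 above background in 2 remission and 0 control pools. In the list of phagocyte oxidase and hematopoietic actin regulators, 2 of 26 genes were called. At an unadjusted p under 0.05, 18 had a higher level (69.2%, against 4.48% of all genes). The median log2 fold change of the list was 0.44, also without remission pool 3. Laptm5 (1.03, adjusted p = 0.083), Cyba (0.61, adjusted p = 0.0602) and Rac2 (adjusted p = 0.114) were among the 18.

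Of 31 macrophage and monocyte genes, Mrc1 was called and 13 had an unadjusted p under 0.05 with a higher level (41.9%, against 4.48% of all genes). Adgre1, which encodes an adhesion receptor used as a marker of macrophages, was at 11.26, 11.19 and 10.71 in remission, against 10.29, 10.28 and 10.42 in control (log2 fold change 0.72, adjusted p = 0.17). Mgl2, a lectin of dendritic cells and some macrophages, was above background in 2 remission and 0 control pools and was called without remission pool 3 (adjusted p = 0.0468). The median of the macrophage list was 0.18, and 0.22 without remission pool 3. Of its 31 genes, 16 were above background in a remission or control pool.

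Of 37 adhesion molecules that leukocytes use at vessels, 2 were called, Podxl and Emcn, both counted above, and 13 had an unadjusted p under 0.05 with a higher level (35.1%, against 4.48% of all genes). Their median was 0.13, and 0.14 without remission pool 3, when 1 was called. Icam1, the ligand of beta2 integrins, was at 12.76, 12.91 and 13.54 in remission, against 12.23, 11.96 and 12.39 in control (log2 fold change 0.87, adjusted p = 0.137), with pool 3 the highest. Madcam1, the ligand of the mucosal homing integrin, was at 10.12, 10.44 and 10.33 in remission, against 9.58, 9.30 and 9.91 in control (0.70, adjusted p = 0.0939). Among 35 chemokine ligands, Cxcl12 and Ccl5 were called (0 without remission pool 3). Cxcl16 (0.55, adjusted p = 0.138), Cxcl13 (1.07, adjusted p = 0.206) and Cxcl9 (1.22, adjusted p = 0.258) were not. The median of the ligands was 0.12, and 0.11 without that pool. Of the 35 ligands, 14 were above background in a remission or control pool.

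The remaining 4 named genes were Gask1b (log2 fold change 0.50), the UDP-glucose receptor P2ry14 (0.65), Uba7, the activating enzyme of ISG15 (0.58), and Mfng, a glycosyltransferase that tunes Notch receptors. Mfng was above background in 3 remission and 0 control pools and at least 1.49-fold higher (adjusted p = 0.0467). Of the 44 genes, 12 had further probes, 15 in all. The 6 of these above background were all higher in remission, 4 with an unadjusted p under 0.05, while the rest were not above background.

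**Figure D3:**
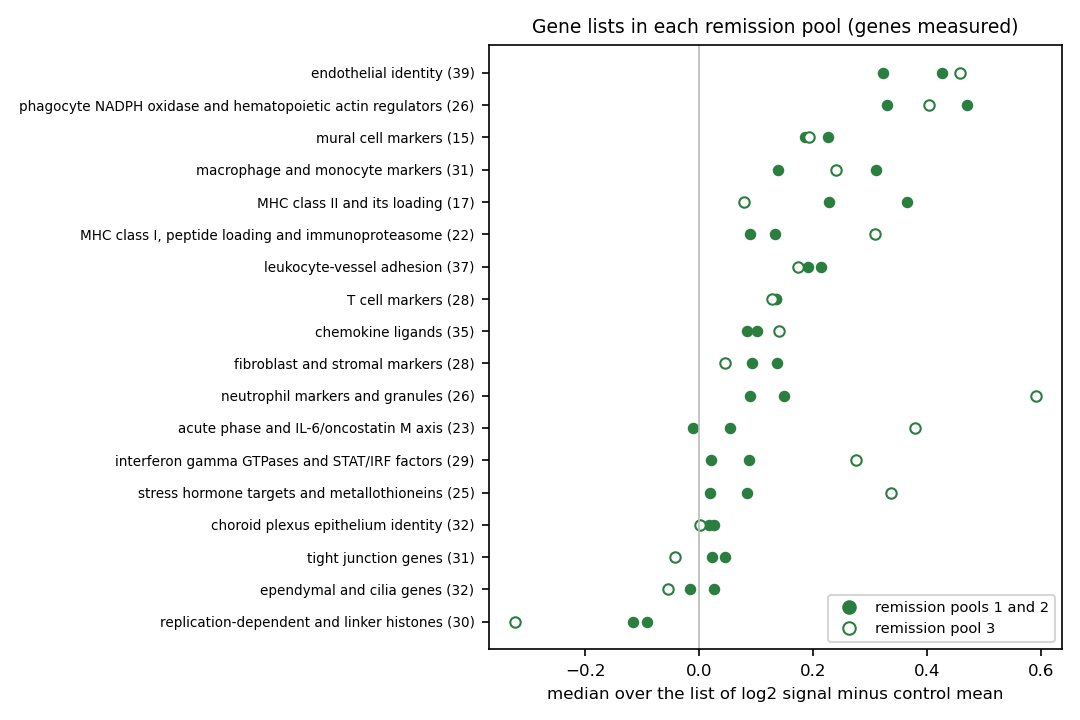
Median over the measured genes of selected lists of the log2 signal in each remission pool minus the control mean; green points are remission pools 1 and 2 and open points remission pool 3, with the number of genes measured in brackets. Endothelial and phagocyte lists are up in all 3 pools, whereas neutrophil, acute phase, interferon gamma and stress hormone lists are up mainly in pool 3.

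Genes of acute inflammation were highest in remission pool 3, and 0 of 26 neutrophil genes and 0 of 23 acute phase genes were called. At an unadjusted p under 0.05, 7 neutrophil genes (26.9%) and 7 acute phase genes (30.4%) were higher, against 4.48% of all genes. At that threshold 0 neutrophil genes and 1 acute phase gene were lower. Lcn2, which encodes the iron-binding protein lipocalin 2, was at 10.21, 11.12 and 12.75 in remission, against 10.29, 8.95 and 10.90 in control. The groups overlapped, and its log2 fold change of 1.31 ± 0.55 (adjusted p = 0.651) was 0.62 without remission pool 3 (adjusted p = 0.973). S100a8, a calgranulin of neutrophils, was at 11.38, 11.57 and 12.91 in remission, against 11.01, 9.81 and 11.41 in control. Saa3, an acute phase apolipoprotein, was at 9.52, 10.25 and 12.20 in remission, against 9.14, 8.42 and 10.30 in control. The median over 26 neutrophil genes was 0.15, 0.09 and 0.59 in remission pools 1, 2 and 3, and that of 23 acute phase genes was 0.05, -0.01 and 0.38.

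Between remission and onset, 0 probes were higher and 0 lower in the fit of all pools by limma, with 435 (1.81%) and 548 (2.29%) at an unadjusted p under 0.05. Without remission pool 3, 58 probes were lower in remission than in onset (0.242%) and 13 were higher (0.0542%). In the following, genes were picked for that difference after their values were seen, and their remission values are a description. Socs3, the feedback inhibitor of IL-6 family cytokines, was at 10.43 and 10.07 in remission pools 1 and 2 and at 12.15 in pool 3, against 12.32, 12.12 and 12.04 in onset, with control at 10.34, 10.48 and 10.49. Irgm1, an interferon-induced GTPase, was at 9.92, 9.93 and 11.23 in remission and at 11.32, 11.28 and 11.19 in onset, with control at 9.86, 9.79 and 10.11. In Irgm1, as in Socs3, remission pool 3 was at the onset level and the other two at or near the control level. Chil4, a chitinase-like protein, Igtp, a further GTPase, Osmr, the oncostatin M receptor, and Plin4, a lipid droplet coat protein, were lower than in onset as well (remission pools 1 and 2 minus onset of -1.81, -1.10, -1.22 and -1.40 on the log2 scale).

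In all 58 probes remission pool 3 was above remission pools 1 and 2 and above the 3 control pools. In 36 of them pools 1 and 2 were at or below the highest control pool. The 58 were picked for values in pools 1 and 2 below onset, and remission pool 3 is very close to onset pool 3. Both counts are therefore favoured by the choice and are a description, and the same shares over all probes were not computed. Among the 13 that were higher than in onset were Alox12, the platelet-type lipoxygenase, Esm1, an endothelial proteoglycan, and Mgp, the matrix Gla protein. Alox12 was at 9.47, 9.48 and 8.93 in remission, against 8.95, 8.87 and 8.85 in control, and was called against control without pool 3 (log2 fold change 0.58, adjusted p = 0.0402). Esm1 was at 10.28, 10.26 and 9.30 in remission, with pool 3 inside the range of the control pools, and was not called (0.94, adjusted p = 0.0959).

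**Figure D4:**
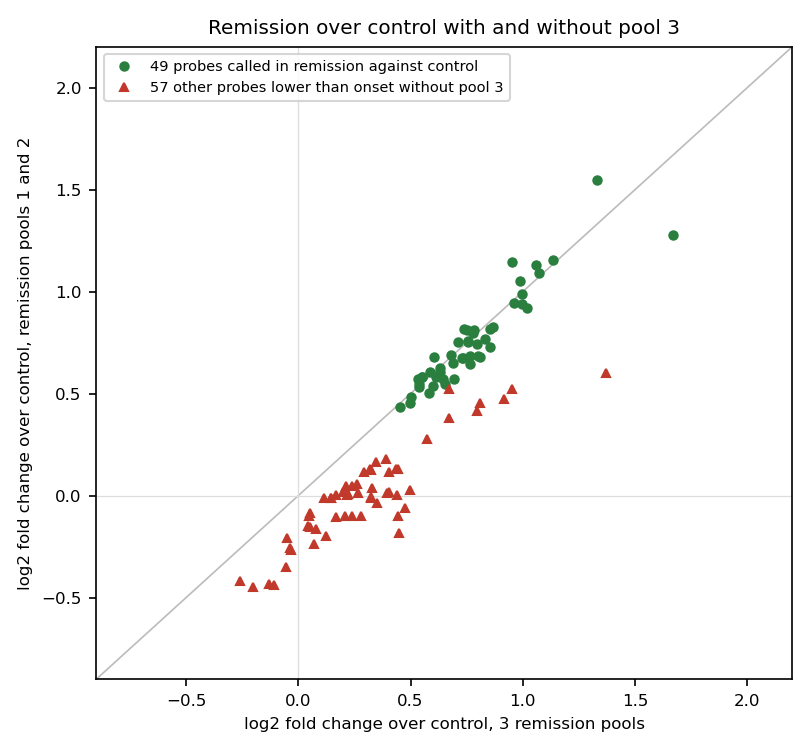
Log2 fold change over control in all 3 remission pools on the horizontal axis and in remission pools 1 and 2 on the vertical axis, with the line of equality. Green points are the 49 probes called in remission against control, which lie near the line. Red triangles are 57 other probes that were lower in remission than in onset without pool 3. Their median was 0.27 with pool 3 and 0.0014 without it. They were picked for low values in remission pools 1 and 2 relative to onset, which favours a lower median without pool 3.

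No gene was called lower in remission, although a fit with array weights called 29 probes lower. The lowest p of a gene with a lower level belonged to H4c18, a histone H4 gene, at 9.24, 9.66 and 9.33 in remission, against 9.91, 10.04 and 9.96 in control (log2 fold change -0.56, adjusted p = 0.0836). Spon2, a matrix protein (-0.55, adjusted p = 0.143), Ddit4l (-0.40, adjusted p = 0.125), and B4galt6, an enzyme of glycolipid synthesis (-0.36, adjusted p = 0.194), were also among the 10 genes of lowest p, with groups that did not overlap. The remission pools lay below all control pools for 955 of the 15946 genes, and a choice by lowest p favours such genes. The others of the 10 were Ihh, above background in 0 remission pools and 1 control pool, Fam181b (-0.30, adjusted p = 0.177), and 1700086L19Rik, Cd46, Krt6b and Cacng6, which were above background in no remission or control pool (adjusted p of 0.166 to 0.214). Of 30 histone genes measured, 13 had an unadjusted p under 0.05 with a lower level (43.3%, against 2.95% of all genes) and 0 were called, with a median of -0.15. That median was -0.12, -0.09 and -0.32 in remission pools 1, 2 and 3. Histone genes are near-identical copies whose messages mostly lack a poly(A) tail.

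No gene of the CP epithelium was called. Of 32 epithelial identity genes measured, 0 were called and 0 had an unadjusted p under 0.05, with a median log2 fold change of 0.01. Otx2, the transcription factor that specifies the CP, was at 15.18, 15.29 and 15.26 in remission, against 15.30, 15.43 and 15.29 in control, a difference of -0.10 with a 95% confidence interval of -0.26 to 0.06. Folr1, the folate receptor, differed by 0.01 (-0.13 to 0.15). Tight junction genes, of which 31 were measured, had a median of 0.0028 with 0 calls, and 32 ependymal and cilia genes one of -0.02. The brightest of the epithelial genes lie near the top of the range of the arrays, which limits the change that can be seen in them.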

How the data were processed

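Total RNA of CP pools was hybridised to Illumina MouseRef-8 arrays, and the authors read them with BeadStudio. The deposited table gives, per the file headers, a signal intensity per probe on a linear scale, not normalized, and a detection p-value; a second deposited table holds the authors' quantile-normalized log2 values, which differ from those made here by at most 0.0888. The beadchip of each array is not given in the sources used here. The labels name the Ambion MessageAmp kit and the paper the Illumina TotalPrep kit. The authors used limma at a false discovery rate of 5%. For remission the paper reports more genes, both higher and lower, than were called here, and the reason was not tested.

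Here, 5 duplicate probes of 23983 were left out, log2 signals were quantile-normalized and tested with limma 3.58.1 in R 4.3.3, with a mean per group over all 11 pools and Benjamini-Hochberg adjustment over all probes, two-sided, as tested on simulated data. A gene stands by its brightest probe; 3060 probes have no gene name. Above background means a detection p under 0.01. For genes above background in no control pool, a fold is given only as a bound against the detection limit. Genes were named from those called, the 10 with the lowest p among those lower, up to 4 genes of smallest p in a list, and Lcn2; others were chosen after their values were seen. Gene lists, groupings and comparisons were chosen with earlier results of these data known. List medians take in all genes measured, those not above background included. Alternatives were neqc background correction, median scaling, the authors' values, a filter on dim probes (above background in 2 pools), a fit of 2 groups, the replicate block, array weights, a trended robust fit, 1 probe per gene, and leaving out each remission and each control pool. The labels give the pools as separate groups of mice, and p-values measure the spread between pools. The main fit takes all pools as independent. Whether the remission and onset pools that were closest to each other share material was not tested, so its p-values rest on an independence that is not established. The number of arrays limits the precision. Promoters are from RefSeq (GRCm38.p6), where 32 of the 44 called genes were matched.

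Same-numbered remission and onset pools deviated together from their group means (correlations of 0.47, 0.34 and 0.31), so the number was used as a block there as an alternative.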

Additional observations from a re-analysis of the deposited data

Results flagged for a closer look

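Of the called genes, 7 differed between remission and relapse by limma's test of the difference itself, with remission minus relapse on the log2 scale of 1.04 for Flt1, 1.03 for Robo4, 0.89 for Alpl, 0.87 for Emcn, 0.83 for Cxcl12, 0.79 for Arap3 and 0.77 for Eng. All 3 remission pools lay above both relapse pools for each of them. Their call in this same comparison and their choice for high values in the same remission pools favour this. The share over all probes was not computed.

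Signals also came from probes that the platform table pairs with no gene. In remission against control, the 5 called were probe 1780446 (log2 fold change 1.13), probe 780082 (1.00), probe 4730685 (0.78), probe 4210184 (0.71) and probe 3610048, which was above background in no control pool (fitted 1.06, at least 1.37-fold higher).

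A further 6 probes without a gene name were called only without remission pool 3, with fitted log2 differences of 3.77 for probe 6370309, 3.33 for 1230347, 2.61 for 1690184, 1.83 for 110632, 1.83 for 6040164 and 1.61 for 60025. All 6 were above background in no control pool, so these fitted values are no bounds. Over all 3 remission pools the bounds were at least 4.74-fold for 6370309, 2.54-fold for 1230347, 2.28-fold for 1690184, 1.09-fold for 6040164 and 1.07-fold for 110632, with none for 60025. Probe 6370309 was at 12.39, 12.37 and 9.12 in remission, against 8.51, 8.59 and 8.74 in control, and at 12.60 and 12.88 in relapse. The other 5 were likewise high in remission pools 1 and 2 and in both relapse pools, while remission pool 3 was at 7.98 to 8.57, against 7.59 to 8.53 in control. Which transcripts they measure was not tested.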

How the results depend on the processing

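The count of 49 probes higher in remission than in control depended on the setting. It was 11 with neqc background correction, 31 with median scaling and 251 (and 29 lower) with array weights. With only the remission and control pools in the fit it was 22, of which 15 were among the 49. Without pool 3 of both onset and remission it was 9, an alternative that shares 3 probes with the 49. Leaving out 1 remission or control pool gave 0 to 85, with 14 without remission pool 1, 0 without remission pool 2, 18 without remission pool 3, and 4, 0 and 85 without control pools 1, 2 and 3. The authors' values, the filter on dim probes, the trended robust fit and 1 probe per gene stayed within 1.5 times. Same-numbered remission and control pools had correlations of -0.25, -0.41 and 0.32, so they share only a number. With the replicate block, 8 probes were higher in remission than in control and 1 than in relapse, and between remission and onset the block left 0 calls. Whether same-numbered remission and onset pools are paired was not tested. Remission pool 1 and control pool 2, of unlike number, had a correlation of 0.62. The 7 probes higher in remission than in relapse were 2 (and 1 lower) with neqc, 0 with median scaling, 14 (and 2 lower) with array weights, 0 to 3 when 1 remission pool was left out and 0 without both pools 3, and 1 probe per gene gave 1 lower. For remission against onset, leaving out 1 remission pool gave 0 to 13 higher and 0 to 58 lower, and 7 higher and 37 lower without both pools 3. Of the named genes against control, Chil4 (-0.10 to 0.79), Igtp (-0.0075 to 0.52) and Socs3 (-0.18 to 0.86) changed sign when 1 pool was left out, being negative without remission pool 3, and were at -0.10, -0.0075 and -0.18 without both pools 3. The cause was not tested. Over 101 named genes and all settings, 1158 values kept direction and call, 375 lost the call and 70 gained it. Only genes called in the main fit could lose a call, so all 375 fell on these. The 1158 also hold values of genes that were not called and stayed so, and do not measure how stable the calls were. Among the called genes, Flt1 lost its call in the fewest settings (2, kept in 14). Cdh5 was among those that lost it in the most (11, kept in 5). Few arrays and genes near background limit what could be detected.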
